A study of Rattus norvegicus with 19 samples.

Results

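The main effect of enalapril on left ventricular gene expression was read as the mean of the 2 groups given enalapril minus the mean of the 2 groups without it, all taken at 15 weeks of age and each group weighted equally. Of the 19 arrays, 15 entered this comparison, 7 with enalapril and 8 without it. The 4 baseline arrays came from untreated rats of 11 weeks. They entered the normalization, the choice of probe sets and the estimate of the spread, but not the difference itself. All animals were male Dahl salt-sensitive rats (Harlan SS/Hsd), a strain whose blood pressure climbs on a salty diet, and all ate 6% NaCl from 6 weeks of age. Total RNA of the left ventricle, with an RNA integrity number above 9 in each sample, was hybridised to 1 Affymetrix array per rat.

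The enalapril group (n = 3) received enalapril at 90 ug a day from an osmotic pump together with vehicle injections, and the vehicle group (n = 4) received the injections alone. The combination group (n = 4) received enalapril at the same rate together with paricalcitol, a vitamin D receptor activator, at 200 ng per injection, 3 injections a week, and the paricalcitol group (n = 4) received paricalcitol alone. Treatment lasted 4 weeks in each group, after 5 weeks of high salt, and no group on a low-salt diet was compared. Per the design text, enalapril was given at a low dose, chosen so that blood pressure would not drop noticeably, and pumps are described for the enalapril groups, so drug and pump cannot be told apart. Animal numbers in the descriptions do not interleave between groups, so a cohort of animals and its treatment cannot be told apart either, and p-values measure the spread between these rats.

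Enalapril blocks angiotensin-converting enzyme, which makes the vasoconstrictor angiotensin II from angiotensin I and breaks down the vasodilator bradykinin. In a heart under pressure load, angiotensin II acts through its type 1 receptor on muscle cells and fibroblasts, and is known for promoting hypertrophy, matrix deposition and TGF-beta signalling. Such hearts also tend to shift from fatty acid oxidation towards glucose and to lose mitochondrial capacity, which depends on nuclear genes and on a separate ribosome inside the mitochondrion that translates the mitochondrial genome.

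The tissue carried its defining markers: none of the 11 measured cardiomyocyte markers was at 0 on all arrays, and their summed intensity per array was 153326 to 161478 in the enalapril group, against 153987 to 159163 in the vehicle group, and 158603 to 167707 in the combination group, against 158040 to 163867 in the paricalcitol group. Within the groups given paricalcitol, arrays differed from each other. Combination rats 2 and 3 had red cell marker scores (the mean deviation of 8 marker genes from their mean over 19 arrays) of -0.88 and -0.79, and paricalcitol rats 2 and 3 of -0.64 and -0.99, against 0.34 to 0.60 on the other arrays of these groups. Several results that rest on these arrays, but not all, are given with and without them.

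No gene passed a limma adjusted p of 0.05 in the main effect (0 of 14217 genes, 0%). The smallest adjusted p was 0.155, for Synj1. At an unadjusted p under 0.05 there were 1091 genes, against 711 that 5% of the genes would make: 602 were higher (4.23%) and 489 lower (3.44%) with enalapril. The effect was also not past the threshold for any gene without paricalcitol (802 genes at an unadjusted p under 0.05) or with it (1286 genes), and neither was the interaction of the 2 drugs (987 genes). Values below are log2(intensity + 16) with a floor of 4, and differences are log2 with limma's standard error (SE).

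The differences at the 2 paricalcitol levels, which share no array, were unrelated over genes. Of the 7108 brighter genes (mean level above the median gene, 7.07), 3575 had the same sign at both levels, or 50.3%. Pearson's r over these genes was -0.002, given as a description across genes that share their arrays. The differences were small at both levels, with SDs over the brighter genes of 0.18 without paricalcitol and 0.20 with it. Genes that moved the same way at both levels were thus about as common as genes that moved in opposite directions.

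**Figure D1:**
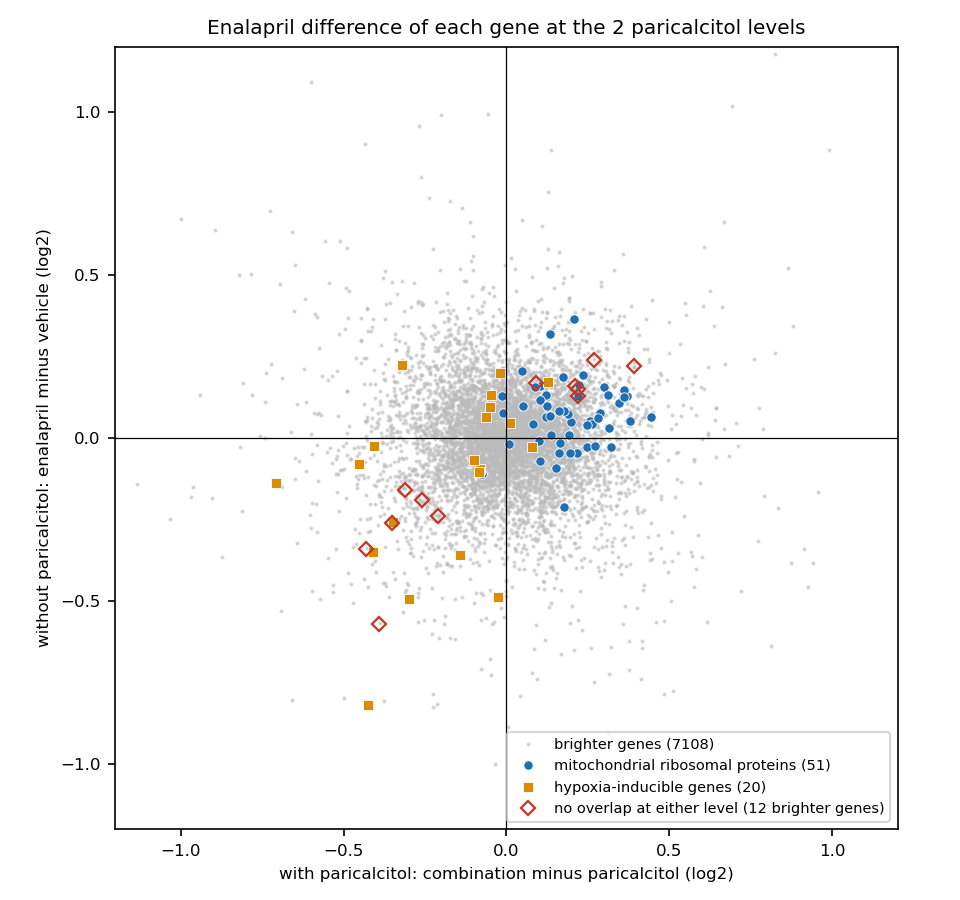
Difference of each of the 7108 brighter genes with enalapril at both paricalcitol levels (log2): the horizontal axis is combination minus paricalcitol and the vertical axis enalapril minus vehicle. Grey points form a round cloud (r = -0.002); 36 of 51 mitochondrial ribosomal protein genes (blue) lie to the upper right of the origin and 12 of 20 hypoxia-inducible genes (orange, 2 of them dimmer than the median gene) to its lower left, and 9 brighter genes lie outside the axes.

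Genes of the mitochondrial ribosome, which translates the subunits of the respiratory chain that the mitochondrial genome encodes, were higher with enalapril nearly as a group. Of 51 measured members, 48 were higher and 3 lower in the main effect, with a median difference of 0.13, a fold of 1.09, against a median of 0.00 and 49.1% higher over all genes. At both levels 36 members were higher (70.6%, beside 24.3% of all genes) and 1 was lower (1.96%, beside 22.9%). At an unadjusted p under 0.05 there were 14, each of them higher. This is 27.5% of the members, beside 4.23% of all genes. No member passed the adjusted threshold (smallest adjusted p 0.413).

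The 3 members with the smallest p were Mrps30, Mrps22 and Mrps12, and Mrpl20 was the member whose groups did not overlap at either level. Mrps30, a protein of the mitochondrial ribosome encoded at chromosome 2 (52189049 to 52196136, GRCr8), stood at 10.05, 9.97 and 9.86 with enalapril, against 9.79, 9.88, 9.65 and 9.91 with vehicle. With paricalcitol it stood at 9.99, 10.14, 9.95 and 9.91 in the combination group, against 9.76, 9.62, 9.66 and 9.75 in the paricalcitol group. The combination arrays all lay above the paricalcitol arrays, while 1 enalapril array lay within the vehicle range, and the main difference was 0.23 (SE 0.05, adjusted p = 0.413).

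Mrps12, the mitochondrial counterpart of a bacterial decoding-site protein, stood at 9.74, 9.46 and 9.62 with enalapril, against 9.28, 9.46, 9.48 and 9.69 with vehicle. With both drugs it stood at 9.55, 9.56, 9.80 and 9.73, against 9.35, 9.14, 9.34 and 9.35 with paricalcitol alone. Only the groups given paricalcitol were separate, and the main difference was 0.25 (SE 0.07, adjusted p = 0.413). Mrps22, a small-subunit protein, differed by 0.18 (SE 0.05), with 0.08 without paricalcitol and 0.29 with it. Its other probe set, close to the floor at 4.42, gave -0.17 (SE 0.21).

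Mrpl20, a large-subunit protein, stood at 10.20, 10.37 and 10.21 with enalapril, against 10.00, 10.16, 10.17 and 10.20 with vehicle, groups that met at the second decimal. Combination rats had 10.13, 10.36, 10.38 and 10.27, against 10.06, 10.06, 10.09 and 10.06 in paricalcitol rats. The main difference was 0.17 (SE 0.05, adjusted p = 0.426). The 3 members that were lower, named after their values were seen, were Mrps26 (-0.09), Mrps6 (-0.02) and Mrpl15 (-0.0047), and Mrps26 alone was lower at both levels.

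**Figure D2:**
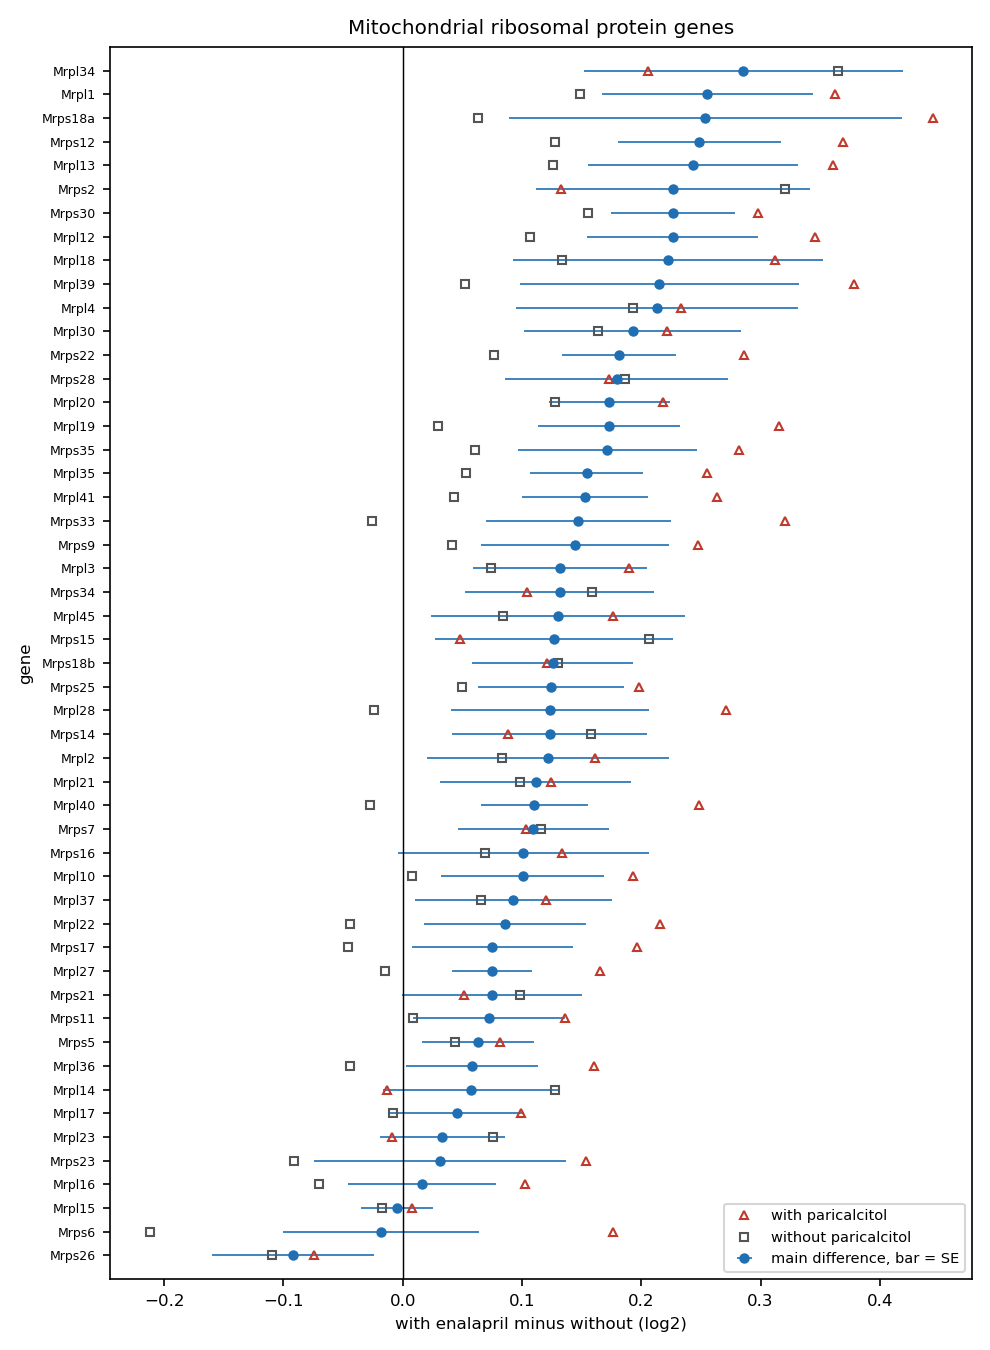
Enalapril difference (log2) of the 51 measured mitochondrial ribosomal protein genes, sorted by the main difference: filled circles show the main difference with its SE, triangles the difference with paricalcitol and squares that without it. The main difference runs from -0.09 to 0.29, and 48 of the 51 circles lie to the right of 0.

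The shift was larger with paricalcitol (median 0.19, 48 of 51 higher) than without it (median 0.07, 38 of 51 higher), and 7 of 51 members had an unadjusted interaction p under 0.05, beside 987 of all 14217 genes, with none past the adjusted threshold. The score of the 51 members on each array was 0.10, 0.06 and -0.01 with enalapril, against -0.06, 0.05, -0.06 and 0.00 with vehicle. It was -0.05, 0.22, 0.15 and 0.08 in the combination group, against -0.14, -0.01, -0.03 and -0.19 in the paricalcitol group. Arrays overlapped at both levels. Same-numbered combination and paricalcitol arrays deviated together, and the score was higher with enalapril in 4 of 4 of them. The titles give replicate numbers but name no pairs, and this count restates the difference with paricalcitol. The 2 highest scores belonged to combination rats 2 and 3, the arrays with few red cell transcripts. Without these 2 rats 41 of 51 members were higher and the median was 0.06, and without paricalcitol rats 2 and 3 as well it was 48 of 51 and 0.13. With the red cell score as a covariate 48 of 51 members were higher (median 0.13).

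The pattern was not limited to the list. Of all 73 measured genes named Mrpl or Mrps, a wider set drawn up after the values were seen, 66 were higher and 53 higher at both levels. At an unadjusted p under 0.05 there were 22, all higher, beside 4.23% of all genes. The 73 include the 51 listed. Of the 22 not listed, 18 were higher and 17 higher at both levels, with 8 at an unadjusted p under 0.05, all higher. By name, which does not always give the subunit, genes named Mrpl were higher in 43 of 46 cases and genes named Mrps in 23 of 27, both with a median of 0.12. Ribosomal proteins of the cytosol, which build the ribosome for nuclear messages, did not share the direction: 10 of 33 were higher, with a median of -0.02, and none was at an unadjusted p under 0.05 in either direction.

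The respiratory chain and ATP synthase, which the mitochondrial ribosome serves, leaned the same way by less. Of 48 measured nuclear-encoded subunits, 37 were higher, with a median of 0.04. At both levels 30 were higher (62.5%, beside 24.3% of all genes). At an unadjusted p under 0.05, 5 were higher (10.4%, beside 4.23% of all genes) and 1 lower (2.08%, beside 3.44%). By complex, 19 of 24 subunits of complex I, 6 of 6 of complex III, 5 of 9 of complex IV and 7 of 9 of ATP synthase were higher. The 4 genes of complex II, which are in the TCA cycle list and not among the 48, were higher in the main effect. Of these, 3 ran in opposite directions at the 2 levels. The lean weakened to 27 of 48 with arrays centred on their medians and 28 of 48 with cyclic loess, and without combination rats 2 and 3 it was 21 of 48 (median -0.01). Without paricalcitol rats 2 and 3 as well it was 33 of 48 (median 0.02).

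Uqcrh, the hinge protein of complex III, was the subunit with the smallest p and had no overlap at either level. It stood at 13.61, 13.46 and 13.47 with enalapril, against 13.32, 13.45, 13.33 and 13.36 with vehicle. In rats given paricalcitol the values were 13.48, 13.54, 13.54 and 13.43 with enalapril added, against 13.29, 13.36, 13.33 and 13.15 without it. The main difference was 0.18 (SE 0.04, adjusted p = 0.374), and it ran from 0.14 to 0.23 over 30 alternative settings and omissions. Separation of Uqcrh at both levels was lost with median centring and with cyclic loess. Ndufab1, the acyl carrier protein that is also part of complex I, differed by 0.09 (SE 0.03), and Atp5f1a, the alpha subunit of ATP synthase, by -0.07 (SE 0.03), neither past the threshold.

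Because these nuclear genes of the mitochondrion leaned together, the 250 bases before their RefSeq start (build GRCr8) were searched on both strands for 2 motifs of factors known for driving such genes in mammals: CCGGAAG, an ETS core bound by GABP, and a core of the NRF-1 site, GCGCA and GCGC with any base between them. The 2 motifs were searched separately and matches could overlap. The ETS core was found in 10% of the 40 mitochondrial ribosomal protein genes with a promoter record and in 27.9% of 43 respiratory chain genes, against 12.9% of 11733 measured genes and 7.27% of all 33469 promoters. The NRF-1 core was found in 10% and 9.30% of these lists, against 7.65% and 3.75%. The mitochondrial ribosomal list thus held the ETS core about as often as measured genes at large. The promoters of Uqcrh, with 1 ETS core whose first base is at -83 from the start, and of Bnip3, with 1 NRF-1 core whose first base is at -111, are shown for the leading higher and lower genes of mitochondria, with the matches in capitals. Those of Mrps30 and Mrpl20, which held neither, are shown beside them; for both, the start in the table lies inside the gene's listed span. Windows are chr5:134790883-134791132 (minus strand), chr1:203154963-203155212 (minus strand), chr2:52195905-52196154 (minus strand) and chr5:171690948-171691197 (plus strand), each written 5′ to 3′ along the gene.
Uqcrh: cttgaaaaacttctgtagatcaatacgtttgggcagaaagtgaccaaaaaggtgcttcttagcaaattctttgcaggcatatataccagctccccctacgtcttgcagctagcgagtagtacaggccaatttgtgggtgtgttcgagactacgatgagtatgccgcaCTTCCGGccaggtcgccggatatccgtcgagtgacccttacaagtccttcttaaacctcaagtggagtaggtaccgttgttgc
Bnip3: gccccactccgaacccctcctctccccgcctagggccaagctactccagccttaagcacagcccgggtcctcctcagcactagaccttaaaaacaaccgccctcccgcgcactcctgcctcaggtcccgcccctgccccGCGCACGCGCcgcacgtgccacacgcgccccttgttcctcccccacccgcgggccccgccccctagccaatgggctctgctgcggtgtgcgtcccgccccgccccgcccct
Mrps30: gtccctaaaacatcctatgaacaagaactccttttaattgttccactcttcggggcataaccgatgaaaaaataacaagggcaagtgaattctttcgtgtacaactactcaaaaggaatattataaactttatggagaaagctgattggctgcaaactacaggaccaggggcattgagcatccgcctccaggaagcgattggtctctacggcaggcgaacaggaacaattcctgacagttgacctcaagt
Mrpl20: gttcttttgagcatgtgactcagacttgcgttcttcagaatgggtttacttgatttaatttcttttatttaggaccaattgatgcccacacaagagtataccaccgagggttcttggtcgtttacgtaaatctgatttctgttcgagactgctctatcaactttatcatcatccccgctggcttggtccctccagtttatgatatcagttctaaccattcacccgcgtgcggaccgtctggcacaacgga

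Few single genes separated the arrays at both levels. With enalapril, 6 genes lay above every array without it at both paricalcitol levels (0.0422% of 14217) and 9 lay below (0.0633%), while 20 genes were separate in opposite directions at the 2 levels (0.141%). The 6 higher genes were C17h7orf25, Uqcrh, Ap1b1, Tmx2, Mrpl20 and Polr2f, with main differences of 0.13 to 0.30. The 9 lower ones were Cpsf7, Herc2, Bnip3, Lamp2, C13h1orf115 and Meis3, with -0.22 to -0.48, and 3 dimmer genes, Serpina10, Ssbp3 and Tanc2, named after their values were seen. These separations rest on small gaps and on the scaling: 12 of the 15 genes were still separate with cyclic loess, 4 with median centring and 2 without equalisation between arrays. Bnip3, Lamp2 and Uqcrh were the genes lost with cyclic loess. All 6 higher genes were lost with median centring.

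C17h7orf25, an open reading frame on chromosome 17 (55238751 to 55245399), showed the largest main difference of the 6 higher genes. It stood at 7.92, 7.93 and 7.88 with enalapril, against 7.69, 7.65, 7.58 and 7.85 with vehicle. In the combination group it stood at 8.21, 8.21, 8.08 and 8.02, against 7.73, 7.68, 7.72 and 7.82 in the paricalcitol group. This gave a main difference of 0.30 (SE 0.05, adjusted p = 0.202).

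Ap1b1, a subunit of the AP-1 clathrin adaptor that sorts cargo at the Golgi, differed by 0.26 (SE 0.07), with nearly equal values of 0.24 without paricalcitol and 0.27 with it. Tmx2, a thioredoxin-related membrane protein of the endoplasmic reticulum, differed by 0.18 (SE 0.05). Polr2f, a subunit shared by the 3 nuclear RNA polymerases, differed by 0.13 (SE 0.04), and among the combination arrays rat 2 stood apart at 9.98, against 9.81 to 9.82 on the others.

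Among the lower genes, Bnip3, a protein of the outer mitochondrial membrane that marks mitochondria for autophagy and is induced by low oxygen, lies on chromosome 1 (203137778 to 203154962). It stood at 12.41, 12.50 and 12.45 with enalapril, against 12.95, 12.52, 12.77 and 12.59 with vehicle. With both drugs it stood at 12.31, 12.19, 12.43 and 12.41, against 12.60, 12.67, 12.56 and 12.90 with paricalcitol alone. Each array with enalapril lay below each array without it, also across the levels, and the main difference was -0.30 (SE 0.08, adjusted p = 0.413). The gap was narrow, at 12.50 against 12.52. Separation at both levels was lost with cyclic loess and without equalisation between arrays.

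Lamp2, a membrane protein of lysosomes whose loss in humans causes a cardiomyopathy with autophagic vacuoles, stood at 10.60, 10.28 and 10.61 with enalapril, against 10.72, 10.61, 10.77 and 10.63 with vehicle. Combination rats had 10.46, 10.49, 10.44 and 10.60, against 10.81, 10.73, 10.67 and 10.85 in paricalcitol rats. The main difference was -0.23 (SE 0.06, adjusted p = 0.413). A second probe set of Lamp2, about as bright at 10.56, gave 0.02 (SE 0.10), so the probe sets of this gene disagreed.

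Cpsf7, a subunit of the cleavage factor that helps choose polyadenylation sites, had the smallest p among the 15 separate genes. It stood at 8.46, 8.50 and 8.34 with enalapril, against 8.56, 8.63, 8.51 and 8.65 with vehicle. In rats given paricalcitol the values were 8.33, 8.22, 8.28 and 8.28 with enalapril added, against 8.56, 8.58, 8.58 and 8.62 without it. The main difference was -0.23 (SE 0.04, adjusted p = 0.166); its 3 other probe sets were near the floor, and averaging all 4 gave 0.00.

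Herc2, a very large ubiquitin ligase, differed by -0.22 (SE 0.05) and by nearly the same amount at both levels (-0.24 without and -0.21 with paricalcitol). C13h1orf115 differed by -0.38 (SE 0.11), with 8.96, 8.66 and 8.86 with enalapril, against 9.26, 9.10, 9.22 and 9.07 with vehicle. Meis3, a homeodomain transcription factor, differed by -0.48 (SE 0.17), with enalapril rat 2 at 6.34, the other enalapril rats at 7.55 and 7.66, and the vehicle rats at 7.73 to 7.80. Its difference was -0.27 at the least over the omissions of single arrays. Serpina10, an inhibitor of coagulation proteases known from liver, was at the floor in 6 of 7 arrays with enalapril and above it in all 8 without (4.49 to 5.58), a range too close to the floor for its size to be read.

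**Figure D3:**
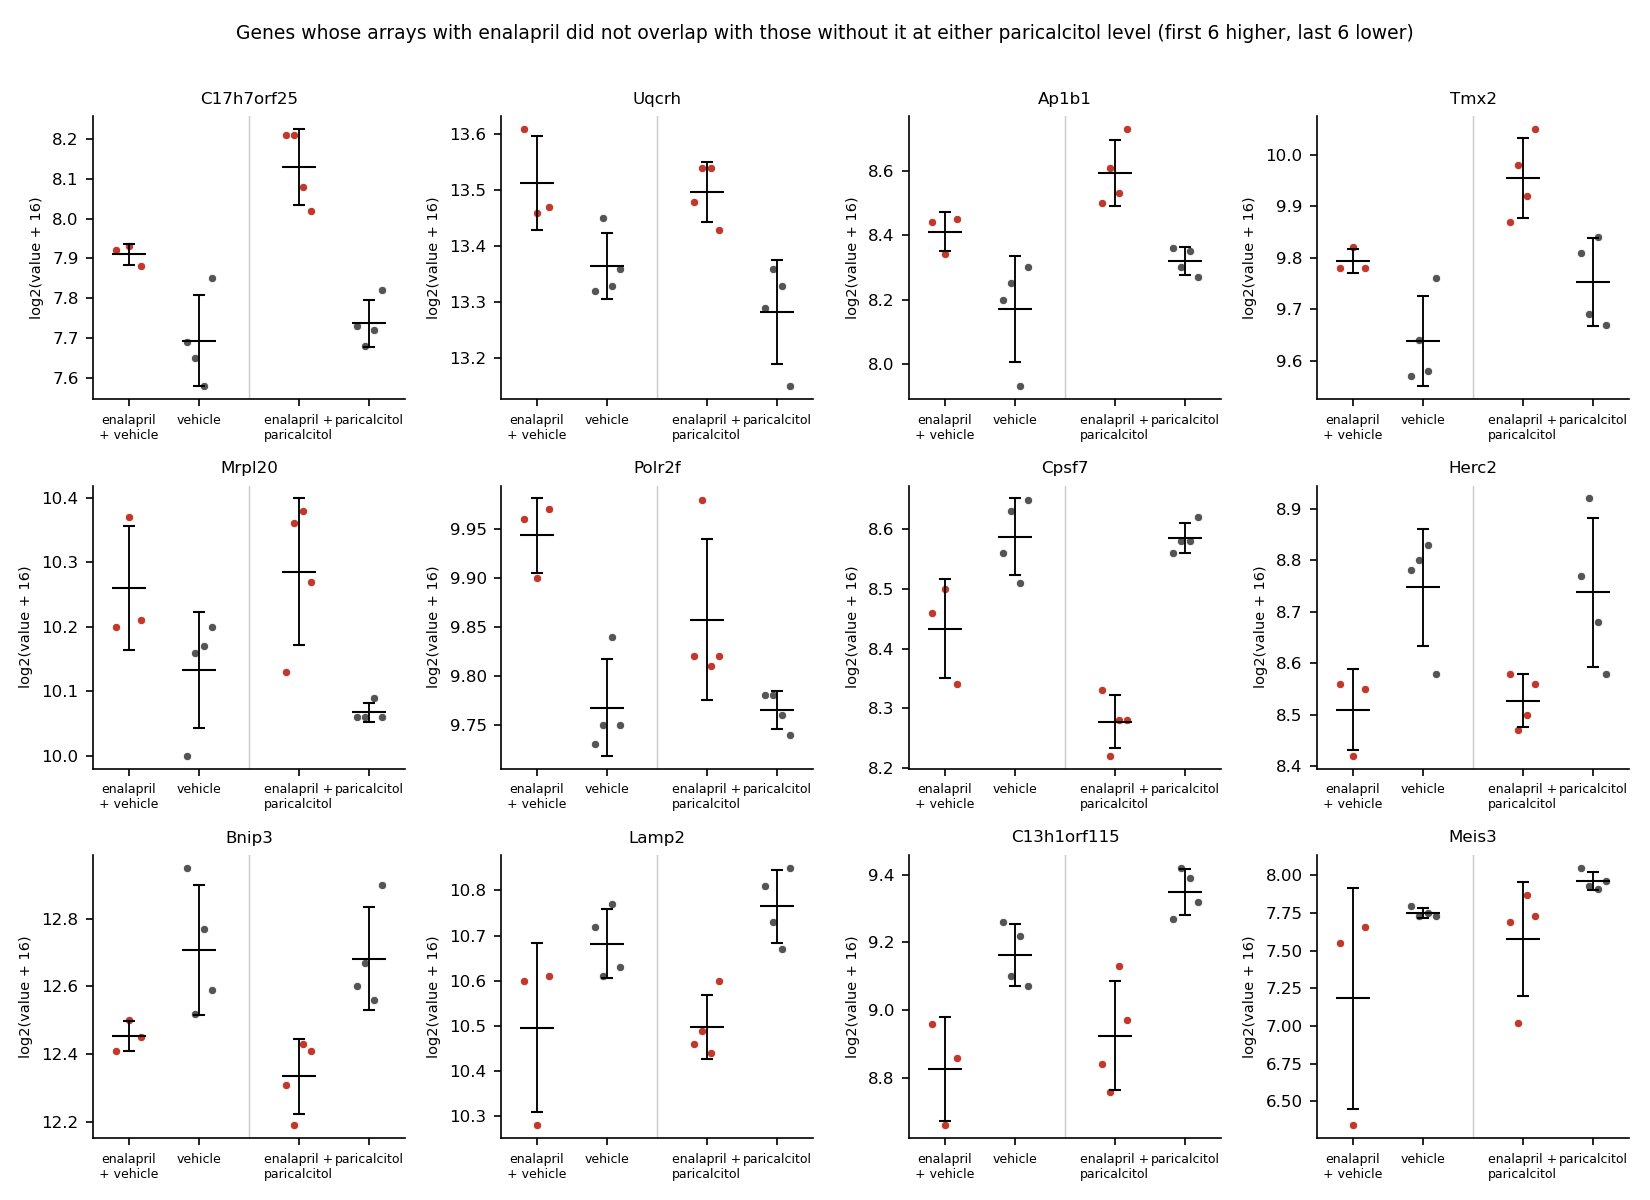
Level, as log2(value + 16), of the 12 brighter genes whose arrays with enalapril (red) did not overlap with those without it (grey) at either paricalcitol level; points are rats, and bars show the group mean and SD (n = 3 for enalapril and 4 for each other group). Gaps between groups are narrow beside the spread within groups, as for Mrpl20 and Lamp2, whose enalapril and vehicle groups meet at the second decimal.

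Synj1, a phosphoinositide phosphatase of the endocytic pathway, had the smallest p of all genes without being fully separate at both levels; it is named for that after its values were seen. It stood at 8.38, 8.42 and 8.61 with enalapril, against 8.69, 8.61, 8.78 and 8.73 with vehicle. In the combination group it stood at 8.40, 8.26, 8.45 and 8.39, against 8.74, 8.59, 8.74 and 8.64 in the paricalcitol group. Only 1 enalapril array reached the lowest vehicle array. Its main difference was -0.27 (SE 0.04, adjusted p = 0.155), and with the replicate number as a block in the limma fit the adjusted p was 0.0255. The titles name no pairs, and same-numbered enalapril and vehicle arrays did not deviate together (r -0.13 to 0.05). The block thus has no basis for the level without paricalcitol.

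Genes induced by low oxygen, which HIF transcription factors drive, leaned lower with enalapril, but by less than the 3 in 4 share that set which lists had members named. Of 20 measured members, 13 were lower and 12 were lower at both levels (60.0%, beside 22.9% of all genes), with a median of -0.09. At an unadjusted p under 0.05 there were 4 lower (20%, beside 3.44% of all genes) and none higher, and none passed the adjusted threshold (smallest adjusted p 0.413). These 4 were Bnip3, Adm, Mxi1 and Ndrg1, the last 3 named after their values were seen. The genes of the pathway's regulators were spread about 0: Hif1a was at 0.02, Egln1, an oxygen-sensing hydroxylase, at 0.03, and Epas1, which encodes HIF-2 alpha, at -0.09.

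Adm, the vasodilator peptide adrenomedullin, showed the widest difference of the 4. It stood at 8.38, 8.30 and 8.47 with enalapril, against 9.12, 9.05, 9.44 and 9.21 with vehicle. With both drugs it stood at 7.80, 8.14, 8.61 and 8.45, against 9.05, 8.62, 8.73 and 8.30 with paricalcitol alone. Enalapril and vehicle arrays were far apart, whereas the groups given paricalcitol overlapped. The main difference was -0.62 (SE 0.17, adjusted p = 0.413), with -0.82 without paricalcitol and -0.43 with it, and it stayed between -0.51 and -0.69 over 30 alternatives and omissions.

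Mxi1, a repressor that competes with Myc for its partner Max, differed by -0.25 (SE 0.08), and a dimmer probe set by -0.09 (SE 0.10). Ndrg1, a cytosolic protein known for its induction by low oxygen, differed by -0.38 (SE 0.16), and its dimmer probe set by -0.40 (SE 0.30). The list score was -0.09, -0.20 and -0.06 with enalapril, against -0.02, -0.15, 0.13 and 0.05 with vehicle, and -0.18, -0.16, -0.08 and 0.07 in the combination group, against -0.06, -0.04, 0.19 and 0.31 in the paricalcitol group. The groups overlapped at both levels. Among same-numbered combination and paricalcitol rats, which the titles do not name as pairs, the score was lower with enalapril in 4 of 4. This count restates the difference with paricalcitol. Without combination rats 2 and 3, and without paricalcitol rats 2 and 3 as well, 13 of 20 were again lower (medians -0.11 and -0.09), and without equalisation between arrays 9 of 20 were lower.

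**Figure D4:**
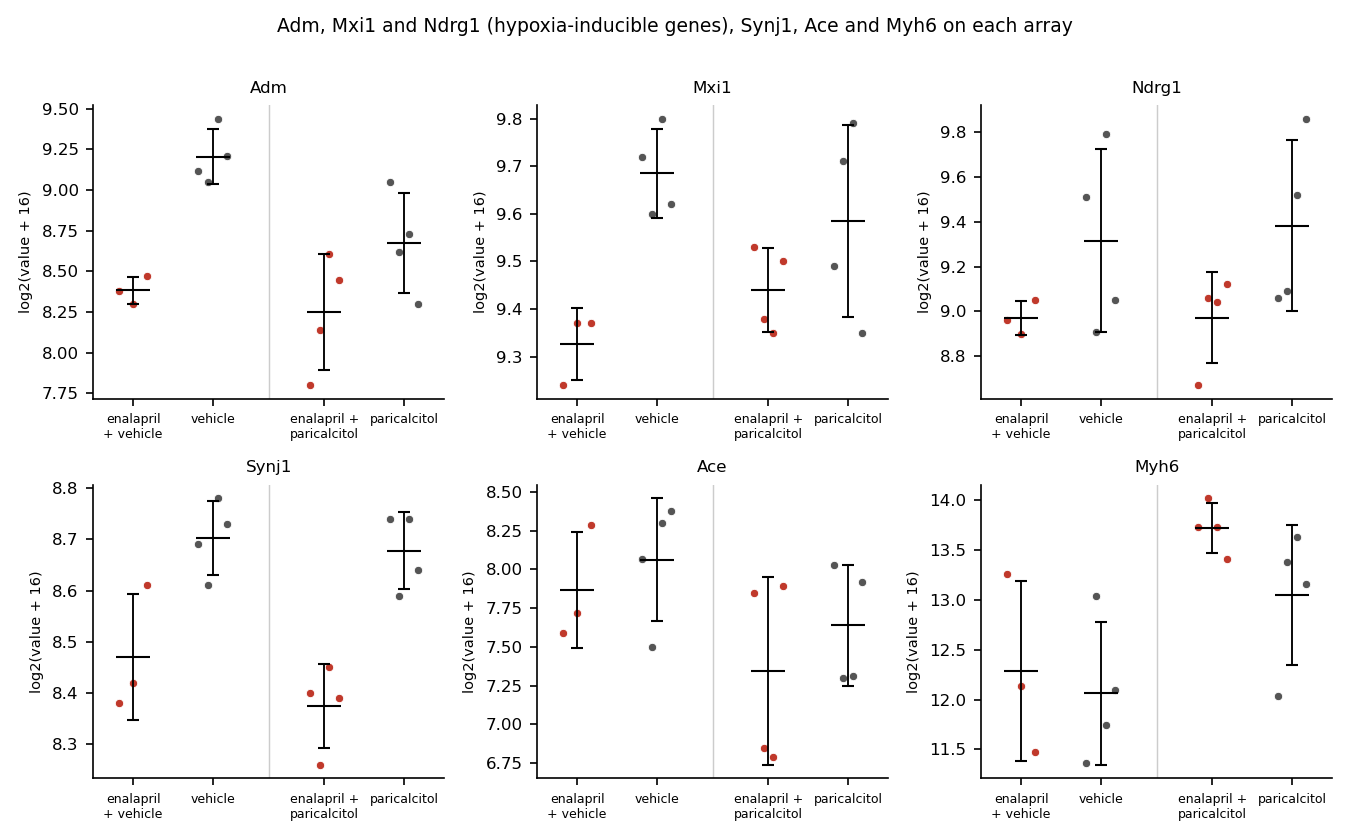
Level, as log2(value + 16), of Adm, Mxi1 and Ndrg1 (hypoxia-inducible genes), Synj1, Ace and Myh6 on each array, with enalapril in red and without it in grey; bars show the group mean and SD (n = 3 for enalapril and 4 for each other group). Adm and Mxi1 are separate without paricalcitol but overlap with it, and Ace and Myh6 overlap at both levels.

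Genes of muscle atrophy and autophagy, a list that also holds Bnip3, were lower in 15 of 21 cases, with a median of -0.09. At both levels 10 were lower (47.6%, beside 22.9% of all genes). Besides Bnip3, 2 members, named after their values were seen, were at an unadjusted p under 0.05, and lower, which makes 14.3%, beside 3.44% of all genes. Trim54, a muscle ring-finger protein of the sarcomere, differed by -0.24 (SE 0.07), with -0.25 without paricalcitol and -0.22 with it. Atg12, a ubiquitin-like protein of autophagosome formation, differed by -0.18 (SE 0.05), but its 2 dimmer probe sets gave -0.02 and -0.01. Fbxo32, the atrophy ligase atrogin-1, was at -0.18 and Trim63, its fellow ligase MuRF1, at 0.05. Without combination rats 2 and 3, 13 of 21 were lower (median -0.09), and without paricalcitol rats 2 and 3 as well 12 of 21 (median -0.01).

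In the renin-angiotensin and kinin system itself, the target of the drug, members were divided: 8 of 17 were higher and 9 lower, with a median of -0.04. At both levels 5 were higher (29.4%, beside 24.3% of all genes) and 4 lower (23.5%, beside 22.9%). Ace, the enzyme that enalapril inhibits, stood at 7.59, 7.72 and 8.29 with enalapril, against 8.07, 7.50, 8.30 and 8.38 with vehicle. Combination rats had 7.85, 6.85, 6.79 and 7.89, against 8.03, 7.30, 7.31 and 7.92 in paricalcitol rats. Groups overlapped, and the 4 lowest of the values with paricalcitol belonged to rats 2 and 3 of both groups. The main difference was -0.24 (SE 0.21, adjusted p = 0.877), 0.02 without combination rats 2 and 3, and -0.15 without paricalcitol rats 2 and 3 as well.

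Agtr1a, the type 1 receptor for angiotensin II, differed by -0.17 (SE 0.16), and Agt, the precursor angiotensinogen, was at the floor on all arrays but a vehicle array at 4.33 and a paricalcitol array at 4.03, so no difference was read. Ctsd, a lysosomal aspartic protease that can cleave angiotensinogen, had the smallest p of the list. It stood at 11.00, 10.77 and 11.06 with enalapril, against 11.16, 11.16, 11.19 and 11.17 with vehicle, without overlap. In the combination group it stood at 11.01, 10.89, 11.00 and 11.20, against 11.04, 11.08, 11.13 and 11.00 in the paricalcitol group, with overlap, and the main difference was -0.13 (SE 0.05, adjusted p = 0.544). Anpep and Mme, aminopeptidase N and neprilysin, both peptidases that degrade angiotensins, were at -0.27 (SE 0.16) and -0.19 (SE 0.12). The difference of Anpep lay with paricalcitol (-0.55) rather than without it (0.02). Mme gave -0.45 with paricalcitol and 0.07 without it. Its mean level of 4.27, with 4 arrays at or below 0, was too close to the floor for these sizes to be read. Neither interaction was past the threshold.

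TGF-beta signalling genes were lower in 17 of 18 cases (median -0.09). The exception, named after its value was seen, was the ligand Tgfb3, at 0.0063. At both levels 9 were lower (50%, beside 22.9% of all genes) and none higher (beside 24.3%). The other 9 ran in opposite directions (50%, beside 47.1% of all genes). One of them, Bmp4, named after its values were seen, was at -0.78 without paricalcitol and 0.51 with it. Bmpr2, the type 2 receptor for bone morphogenetic proteins, stood at 9.91, 9.68 and 9.33 with enalapril, against 9.77, 9.85, 9.86 and 9.90 with vehicle. In rats given paricalcitol the values were 9.30, 9.16, 9.49 and 9.50 with enalapril added, against 9.93, 9.94, 9.59 and 9.60 without it. The groups were separate with paricalcitol and overlapped without it, and the main difference was -0.30 (SE 0.09, adjusted p = 0.413). A dim second probe set, at 5.32, gave 0.04 (SE 0.10).

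Tgfbr1, the type 1 TGF-beta receptor, differed by -0.10 (SE 0.04), and the ligand Tgfb2 by -0.40 (SE 0.34), with 6.98 in combination rat 2 as its lowest value. The list score of combination rats 2 and 3 was -0.59 and -0.35, against 0.12 and 0.13 in the other combination rats, and paricalcitol rats 2 and 3 were at -0.38 and -0.25, against 0.18 and 0.27. Among same-numbered rats of these groups, which the titles do not name as pairs, the score was lower with enalapril in 4 of 4. Here too the count restates the difference with paricalcitol. The score was -0.08, -0.04 and 0.09 with enalapril, against 0.05, 0.09, 0.18 and 0.23 with vehicle, where 13 of 18 members were lower. Without combination rats 2 and 3, 9 of 18 members were lower and the median was 0.00, and without paricalcitol rats 2 and 3 as well it was 14 of 18 and -0.07. Without equalisation between arrays 7 of 18 were lower.

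**Figure D5:**
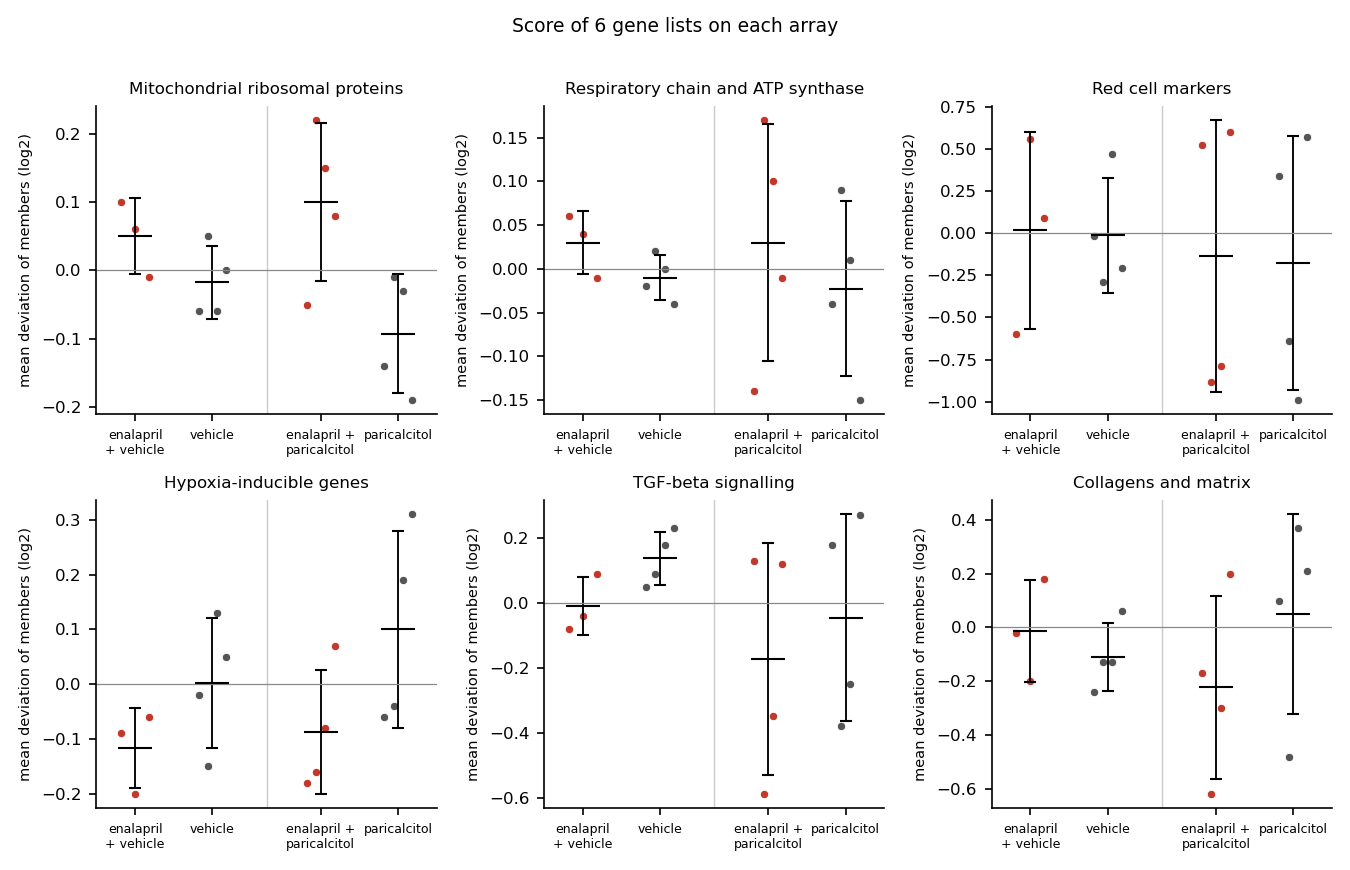
Score of 6 gene lists on each array (mean deviation of the members from their mean over 19 arrays, log2), with enalapril in red and without it in grey; bars show the group mean and SD (n = 3 for enalapril and 4 for each other group). Groups overlap in each list; in the combination group the lowest red cell scores, -0.88 and -0.79, belong to the arrays with the highest mitochondrial scores and the lowest TGF-beta scores.

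In the insulin-like growth factor system 12 of 16 members were lower (median -0.10). Only 4 were lower at both levels (25%, beside 22.9% of all genes), and 11 ran in opposite directions (68.8%, beside 47.1%). Igf2r, the clearance receptor for Igf2, differed by -0.19 (SE 0.05, adjusted p = 0.415), while its second bright probe set gave -0.05 (SE 0.06). Igf2 itself differed by -0.28 (SE 0.10), almost wholly with paricalcitol: 8.62, 8.67, 9.02 and 8.77 in the combination group, against 9.00, 9.44, 9.10 and 9.63 in the paricalcitol group, compared with a difference of -0.04 without it. Irs2, an adaptor of insulin and IGF receptors, was higher by 0.69 (SE 0.28), with enalapril rat 2 at 10.01, against 8.54 and 9.10 in the other enalapril rats. In the combination group Irs2 stood at 7.67, 9.19, 8.86 and 8.48, against 7.31, 7.26, 7.42 and 8.75 in the paricalcitol group. Its main difference ran from 0.28 to 0.87 over 30 alternatives and omissions. The other 3 higher members, named after their values were seen, were Grb14 (0.06), Insr (0.07) and Igfbp5 (0.03).

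Sodium pump and transporter genes were lower in 9 of 12 cases with a median of -0.03, and none was at an unadjusted p under 0.05. The 3 with the smallest p were Slc12a4, a potassium-chloride cotransporter (0.16, SE 0.10), Slc38a2, a sodium-coupled amino acid carrier (-0.07, SE 0.07), and Atp1b1, the beta subunit of the pump (0.07, SE 0.06). Median centring gave 7 of 12 higher, and no equalisation between arrays 11 of 12.

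T cell markers leaned higher in 11 of 14 cases (median 0.13) and macrophage markers in 14 of 18 (median 0.09), most clearly without paricalcitol, where the medians were 0.34 and 0.24. Summed marker intensity was 603 to 687 for T cells with enalapril, against 421 to 590 with vehicle, and 414 to 649 in the combination group, against 480 to 605 in the paricalcitol group. In bulk tissue, more cells of a type and more RNA per cell cannot be told apart. Cd3g, a chain of the T cell receptor complex, was at the floor on 6 of 8 arrays without enalapril and on 1 of 7 with it, but the values above the floor were low (4.48 to 5.33). Zap70, a kinase of T cell receptor signalling, differed by 0.33 (SE 0.19), and Cd3d by 0.45 (SE 0.29). Only 1 of the 14 T cell markers, Zap70, was brighter than the median gene.

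For macrophages the summed intensity was 9609 to 12510 with enalapril, against 8459 to 10400 with vehicle, and 9680 to 14090 in the combination group, against 9092 to 15050 in the paricalcitol group. Cd74, the chaperone of MHC class II, differed by 0.33 (SE 0.24), Aif1, a cytoskeletal protein of macrophages, by 0.36 (SE 0.26) and Csf1r, the receptor of their growth factor, by 0.17 (SE 0.13), none past the threshold. Only 3 of the 18 macrophage markers were higher at both levels (16.7%, beside 24.3% of all genes), since with paricalcitol 14 of 18 were lower. No marker of either type was at 0 on all arrays, although Itgam and Cd6 were at 0 on 10 or more. Leaving out single arrays moved the macrophage median between -0.01 and 0.18.

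Other lists also leaned by less than 3 in 4, or ran in opposite directions at the 2 levels. Interferon-stimulated genes were higher in 16 of 23 cases and at both levels in 12 (52.2%, beside 24.3% of all genes), with a median of 0.09, but without combination rats 2 and 3 in 9 of 23, and without paricalcitol rats 2 and 3 as well in 16 of 23 (median 0.03). Genes of fatty acid uptake and oxidation were higher in 21 of 34 cases and those of the TCA cycle in 14 of 20, with medians of 0.04 each. Without combination rats 2 and 3 these counts were 12 of 34 and 10 of 20, and without paricalcitol rats 2 and 3 as well 20 of 34 and 12 of 20. Collagen and matrix genes had a median of 0.03 without paricalcitol and -0.22 with it, inflammation and adhesion genes of 0.15 and -0.31, and smooth muscle markers of 0.18 and -0.37. Immediate early genes had medians of 0.28 and -0.14, but enalapril rat 2 scored 0.94 on this list, against -0.23 and 0.07 in the other enalapril rats. On the inflammation list paricalcitol rat 4 scored 0.72, against 0.02, -0.24 and 0.15 in the other paricalcitol rats. Over omissions of single arrays the main median ran from -0.11 to 0.236 for immediate early genes and from -0.165 to 0.037 for inflammation genes. For these 4 lists the main effect averages medians of opposite sign and describes the median of neither level, and no interaction of a single gene passed the threshold. Of 43 matrix genes, 16 were lower at both levels (37.2%, beside 22.9% of all genes) and 6 higher (14%, beside 24.3%). At an unadjusted limma p under 0.05, 4 were lower (9.3%, beside 3.44% of all genes) and 0 higher. The 4 were Sparc (-0.18, SE 0.06), Timp3 (-0.25, SE 0.10), Mmp14 (-0.29, SE 0.12) and Fn1 (-0.56, SE 0.26), named after their values were seen. None passed the adjusted threshold. On the matrix list combination rats 2 and 3 scored -0.62 and -0.30, against -0.17 and 0.20 in the other combination rats. Paricalcitol rats 2 and 3 scored -0.48 and 0.37, against 0.10 and 0.21. The main median of this list ran from -0.184 to 0.027 over 30 alternatives and omissions.

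C5ar1, the receptor of the complement fragment C5a, illustrates a difference that lay at a single level and was named after its values were seen. With paricalcitol it stood at 7.87, 7.69, 7.77 and 8.11 in the combination group, against 8.63, 8.36, 8.56 and 8.90 in the paricalcitol group, without overlap (-0.76, SE 0.14, adjusted p = 0.174). Without paricalcitol it stood at 8.32, 8.32 and 8.42 with enalapril, against 8.38, 8.17, 8.32 and 8.51 with vehicle (0.01, SE 0.16). With the replicate number as a block in the fit of 19 arrays, the difference with paricalcitol (adjusted p = 0.0019) and the interaction (adjusted p = 0.0363) were past the threshold. A block in a fit of only the 8 combination and paricalcitol arrays called no gene.

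The panel genes that mark hypertrophy and matrix deposition in a loaded heart were each at an unadjusted limma p above 0.05. Nppb, the B-type natriuretic peptide, was at 0.02 (SE 0.16), Myh7, the slow myosin of the stressed rat ventricle, at -0.02 (SE 0.05; -0.13, SE 0.10, for its second probe set), skeletal actin Acta1 at 0.02 (SE 0.03) and the calcium pump Atp2a2 at 0.03 (SE 0.04). With median centring or cyclic loess Nppb, Acta1 and Atp2a2 turned to values below 0. Nppa, the atrial peptide, was the brightest gene on average and stood between 14.09 and 14.42 on the 15 arrays, and no difference is read from values so near the top of the scale.

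Myh6, the fast adult myosin, was at 0.45 (SE 0.36, adjusted p = 0.855), and its dimmer probe set at 0.90 (SE 0.55). It stood at 13.26, 12.14 and 11.47 with enalapril, against 11.36, 13.04, 11.75 and 12.10 with vehicle. In the combination group it stood at 13.73, 14.02, 13.73 and 13.41, against 12.04, 13.38, 13.63 and 13.16 in the paricalcitol group. Rats of one group spread over more than the difference between groups without paricalcitol, and with it 1 combination array lay within the paricalcitol range. Col1a1 was at -0.19 (SE 0.27) and Col3a1, the other main fibrillar collagen, at 0.13 (SE 0.20). Tgfb1 was at -0.12 (SE 0.20) and the vitamin D receptor gene Vdr at 0.27 (SE 0.15).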

How the data were processed

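Left ventricular RNA of 19 rats was measured on 19 Affymetrix arrays, 1 per rat. The deposited values are linear intensities, background-subtracted by the authors as the values show, since 16% to 18.2% per array are below 0; array medians run from 43.6 to 72.6, so the deposited intensities had not been equalised. No source used here names their software or scaling. Depth has no equivalent on arrays, and the number of arrays limits the precision.

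Values were quantile normalized over 19 arrays, set to 0 where below 0, and written as log2(value + 16). Of 31099 probe sets, 57 were controls, 20826 had 1 gene, 436 several and 9780 none; the brightest probe set stood for each of 14217 genes. Of the 20826, 20758 had a gene ID found in RefSeq. A group-means model was fitted to all genes with limma 3.58.1 in R 4.3.3 with a variance trend, and p-values were adjusted by Benjamini-Hochberg, with a threshold of 0.05. The fit was tested on simulated data. Contrasts were the main effect, the effect at each paricalcitol level, and their interaction.

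Named were genes past the threshold (none); up to 12 per direction of smallest p with the same sign and no overlap at both levels and a level above the median; up to 3 members of the renin-angiotensin list and of each of the 7 lists (of 41) with at least 3 in 4 members of one sign; and a panel of 13 genes. Exceptions are marked in the text. Members and lists were chosen with earlier results of these data known.

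Replicate numbers, taken from the titles, were checked as pairs: deviations of same-numbered arrays correlated above 0.1 for all numbers in 1 of 6 pairs of groups, combination and paricalcitol (r 0.31 to 0.56), and not between the enalapril and vehicle groups (-0.13 to 0.05). The alternatives were median centring, cyclic loess, no equalisation, other pseudocounts, leaving out dim genes, no variance trend, array weights, the 15 arrays alone, equal weight per array, the replicate block, averaged probe sets, a red cell covariate and the omission of each array.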

Additional observations from a re-analysis of the deposited data

Results flagged for a closer look

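In 204 checks of a named gene or a list score within a group of 4 rats, 13 had 1 rat far from the other 3 by Dixon's test (6.37%). Chance alone marks about 1 in 20. All 13 were named genes, so the share among the named genes alone was higher. Among genes higher with enalapril, Polr2f stood at 9.98 in combination rat 2, against 9.81 to 9.82 in the other combination rats. Mrps12 stood at 9.14 in paricalcitol rat 2, against 9.34 to 9.35 in the others of that group. Paricalcitol rat 4 stood apart for Irs2 at 8.75, against 7.26 to 7.42, and for Slc12a4 at 7.92, against 7.54 to 7.60.

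Among lower genes and the panel, Trim54 was at 11.42 in paricalcitol rat 3, against 11.69 to 11.72, and Tanc2 at 6.89 in vehicle rat 1, against 6.53 to 6.57. Nppa was at 14.39 in vehicle rat 1, against 14.42 in the other vehicle rats, and Myh7 at 14.05 in vehicle rat 3, against 14.12 to 14.14, gaps of less than 0.1 each. The remaining 5 were single arrays above a floor of 4 that the rest of their group shared: Cd3g in vehicle rat 1 (5.11) and paricalcitol rat 1 (5.01), Agt in vehicle rat 2 (4.33) and paricalcitol rat 2 (4.03), and Serpina10 in combination rat 3 (4.49).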

How the results depend on the processing

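With 3 to 4 rats per group, single omissions moved the counts of genes past the threshold: the main effect gave 0 to 5 (5 without enalapril replicate 1, LOC102550682, Ins2, Il6st, Rdh7 and Tektl1; 2 without replicate 2, Mov10l1 and Nell2; 1 without replicate 3, Synj1), the effect without paricalcitol 0 to 2, with it 0, and the interaction 0 to 2; genes without overlap numbered 9 to 25 higher and 10 to 30 lower. With the replicate number as a block, 1 gene passed in the main effect (Synj1, adjusted p = 0.0255), 1 with paricalcitol and 1 in the interaction (both C5ar1), and none without paricalcitol; a block in a fit of only the 8 combination and paricalcitol arrays called none. Other settings called 1 gene in the interaction without equalisation (Crygs), 1 without paricalcitol at a pseudocount of 4 (Tnfrsf11a) and 1 over single probe sets, and with paricalcitol 1 with averaged probe sets (Sdc1) and 3 with the red cell covariate (Tmem218, Cryl1, Pcmt1). Omitting combination rats 2 and 3, chosen after seeing the data, gave 2 with paricalcitol (Vil1, Hsp90b1), 1 interaction (Lss) and 38 higher and 41 lower genes without overlap; omitting paricalcitol rats 2 and 3 too gave 82 and 94, single probe sets 16 and 19, and no equalisation 2 lower. Fewer arrays per group make overlap rarer by construction; the cause of the other changes was not tested. Of 1729 values of 58 named genes over up to 30 alternatives, 1695 kept direction and side of the threshold, 2 passed it (Synj1), and 32 turned, in 12 genes. These were Nppb (-0.05), Acta1 (-0.083) and Atp2a2 (-0.068) with median centring; the same genes with loess (-0.043, -0.068, -0.051); Tgfbr1 (0.020), Slc38a2 (0.056) and Tgfb1 (0.004) without equalisation, which moved the median of all genes by 0.094; Nppa (0.006) with the block; Cpsf7 (0.003), Atp2a2 (-0.129) and Tanc2 (0.034) with averaged probe sets; Ace (0.017), Nppa (0.043), Myh7 (0.020), Atp2a2 (0.000) and Tgfb1 (0.120) without combination rats 2 and 3; and Nppb (-0.011), Myh7 (0.008) and Col1a1 (0.080) without paricalcitol rats 2 and 3 too. Over single omissions Nppa ran from -0.042 to 0.022, Nppb from -0.063 to 0.099 and Myh7 from -0.044 to 0.000.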
